A study of Mus musculus with 2 samples.

Results

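Cycling Spp1 trunk cells were the barcodes of an E14.5 mouse pancreas data set that held transcripts of dividing cells together with Spp1, which encodes osteopontin and marks the trunk and duct epithelium of the developing pancreas. They were chosen by raw UMI counts (a UMI is a tag that counts 1 captured transcript molecule). A cell needed at least 1000 UMIs with at most 20% from mitochondrial genes, at least 5 UMIs summed over 8 cycle genes (Top2a, Mki67, Ccna2, Cdk1, Aspm, Cenpf, Birc5 and Ube2c) and at least 1 Spp1 UMI. Endocrine and acinar cells were kept out by ceilings of under 4 Neurog3, under 3 Chgb, under 10 insulin (Ins1 and Ins2), under 3 Gcg and under 15 acinar UMIs (Cpa1, Ctrb1, Pnliprp1 and Clps). The rule found 82 of the 1635 barcodes, 23 in library 1 and 59 in library 2. They were set against the 245 non-cycling Spp1 cells, which passed the same gate with at most 1 UMI of the 8 genes (83 in library 1 and 162 in library 2), and 54 cells with 2 to 4 such UMIs were kept apart as intermediate. Both libraries were wild type pancreas at E14.5, sorted by flow cytometry for low and high fluorescence of Ngn3eGFP, a green reporter of Neurog3, and encapsulated with the inDrop droplet method. The labels name neither strain nor sex nor whether the libraries are from separate embryos. With library as a block in the fit, a p-value here measures the spread left after the difference between the libraries is removed. That spread is pooled over 5 classes of cells, and the spread between embryos cannot be read from it. The sort also sets which Spp1 cells could be captured.

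The trunk is the central epithelium of the branching embryonic pancreas. Its cells divide and give rise both to ducts and, through a pulse of Neurog3, to endocrine progenitors, which mostly leave the cell cycle as they differentiate. In a dividing cell the genes of DNA replication are switched on at the entry to S phase and those of chromosome segregation in G2 and mitosis, when Top2a untangles sister chromosomes, Mki67 coats them, and Ccna2 and Cdk1 form a kinase complex that drives entry into mitosis.

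The libraries held 1910588 and 3425983 UMIs, with medians of 3244 and 2828.5 UMIs per barcode. Cycling cells were deeper than non-cycling ones, with a median of 4165 UMIs (range 1276 to 11391) in library 1 and 3155 UMIs (1269 to 7065) in library 2, against 3031 and 2447.5 UMIs in non-cycling cells. Mitochondrial genes took a median of 3.81% and 3.41% of the UMIs of cycling cells and 4.31% and 3.88% of those of non-cycling cells. Scrublet called none of the cycling cells a doublet (0 of 23 and 0 of 59) and 2 of the non-cycling ones. The libraries shared 3 barcode names, none of them a cycling cell.

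Cycling cells made up 17.6% of the gated Spp1 cells in library 1 (23 of 131, 95% exact binomial interval 11.5 to 25.2%) and 23.6% in library 2 (59 of 250, 18.5 to 29.4%). These intervals cover counting error only, and those of the libraries overlap. The same 8-gene minimum was met by 9.18% and 5.81% of Neurog3-high cells (Neurog3 of 4 or more, Chgb under 3) and by 2.08% and 0.667% of Chgb-high cells (Chgb of 3 or more, Neurog3 under 4). After thinning every cell to 1000 UMIs, which left out 0 cells, at least 2 UMIs of the 8 genes remained in 16.8% and 23.6% of Spp1 cells, 8.16% and 9.03% of Neurog3-high cells and 6.25% and 3.33% of Chgb-high cells. Thus the order with Spp1 cells first stood at matched depth, while the order of libraries among Neurog3-high cells turned round. Just inside the minimum, 0 and 2 cells held exactly 5 UMIs of the 8 genes and 2 and 5 cells held 6, and just outside it 3 and 6 cells held 4. Many cycling barcodes were no Spp1 trunk cells: of the 54 and 176 kept barcodes with at least 5 such UMIs, 31 and 117 lay outside the gate, of which 21 and 99 had no Spp1 UMI and 8 and 57 had too many acinar UMIs.

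**Figure D1:**
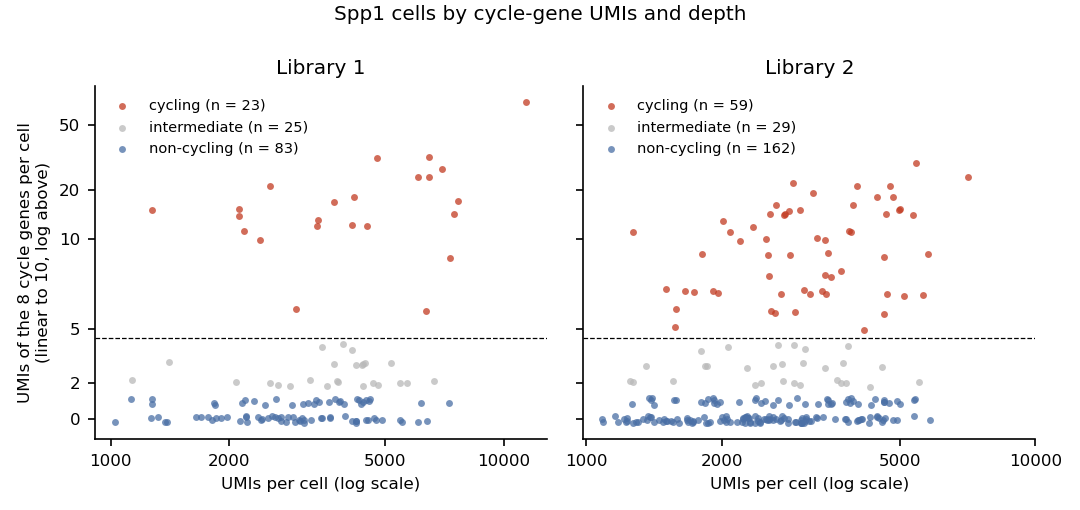
Gated Spp1 cells of library 1 (left) and library 2 (right), with UMIs per cell on a logarithmic x axis and UMIs of the 8 cycle genes per cell on a y axis that is linear to 10 and logarithmic above; points are cells, shifted slightly in height, and the dashed line is the minimum of 5. Cycling cells reached 69 UMIs of the 8 genes in library 1 and 29 in library 2, and their UMI totals (medians 4165 and 3155) lay somewhat above those of non-cycling cells (3031 and 2447.5).

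The 8 genes of the rule chose these cells, so their levels are a description with no test. Summed over the cycling cells of library 1 and library 2 they came to 3787 and 3417 CPM (UMIs scaled to the TMM-adjusted library size), against 114 and 111 CPM in non-cycling cells, with intermediate cells at 640 and 952 CPM. Ube2c, which loads ubiquitin for the anaphase-promoting complex, stood at 1148 and 642 CPM in cycling cells and at 15.1 and 16.5 CPM in non-cycling cells, and 40 of its 130 UMIs in the cycling cells of library 1 came from 1 cell. Top2a had 662 and 844 CPM in cycling cells, against 26.5 and 25.9 CPM in non-cycling cells. Mki67 was the gene most nearly limited to the chosen cells, with 48 and 113 UMIs (424 and 585 CPM) in cycling cells and 1 and 2 UMIs (3.79 and 4.71 CPM) in non-cycling cells. Ccna2 stood at 477 and 445 CPM in cycling cells, against 18.9 and 11.8 CPM in non-cycling cells. Aspm, a spindle pole protein, was among the lower genes of the rule in cycling cells, at 203 and 228 CPM against 11.4 and 18.8 CPM in non-cycling cells. Cdk1, Birc5 (survivin) and Cenpf (a kinetochore protein) lay between 88.3 and 441 CPM in cycling cells and between 4.71 and 21.2 CPM in non-cycling cells. No single gene marked every cycling cell: Top2a gave a UMI in 73.9% and 81.4% of them and Mki67 in 82.6% and 76.3%, against 8.43% and 6.79% (Top2a) and 1.20% and 1.23% (Mki67) of non-cycling cells. Thinned to 1000 UMIs, Top2a gave a UMI in 39.1% and 52.5% of cycling cells and 2.41% and 1.23% of non-cycling cells. In Chgb-high cells, which mostly no longer divide, these thinned Top2a shares were 9.38% and 5.33%, and before thinning 22 of 96 and 15 of 150 cells had a UMI, at median depths of 3362.5 and 2972.5 UMIs.

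Promoters of these genes are known for a pair of elements, the CCAAT box bound by NF-Y and the cell cycle homology region, through which the DREAM and MuvB complexes hold the genes down outside G2 and mitosis. In RefSeq promoter windows (GRCm38.p6, from 250 bases before to 50 after the start of a transcript), the letters of each were searched on both strands, so that along the gene the CCAAT box can also read ATTGG, and the homology region, whose forward letters are TTTGAA, can also read TTCAAA. Forward and reverse boxes can share bases, as they do once in the Ube2c window. Both elements were found in 6 of 7 promoters of the rule's genes (85.7%), in 59 of 155 promoters of 140 mitosis genes (38.1%), in 9 of 85 promoters of 75 replication genes (10.6%) and in 2284 of all 32851 promoters (6.95%). The box was in 37.4% and the homology region in 17.9% of all promoters, with or without the other, Birc5 held neither in its window, and Ccna2 had no entry. Windows of 200 bases directly before the start site are printed from 5′ to 3′ along the gene, with the matched letters in capitals, to show how the elements lie in genes of the rule and in Fam83d and Kpna2, which are described below among the genes called.
Top2a promoter, chr11:99024190-99024389, minus strand: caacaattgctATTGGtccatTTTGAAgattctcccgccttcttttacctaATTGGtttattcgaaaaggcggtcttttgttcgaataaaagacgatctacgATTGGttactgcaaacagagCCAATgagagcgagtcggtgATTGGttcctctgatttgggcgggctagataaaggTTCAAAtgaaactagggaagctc
Mki67 promoter, chr7:135716380-135716579, minus strand: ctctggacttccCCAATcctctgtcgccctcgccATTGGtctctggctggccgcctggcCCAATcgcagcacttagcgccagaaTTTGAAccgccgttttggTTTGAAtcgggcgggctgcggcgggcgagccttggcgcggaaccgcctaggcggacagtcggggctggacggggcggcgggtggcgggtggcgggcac
Cdk1 promoter, chr10:69352913-69353112, minus strand: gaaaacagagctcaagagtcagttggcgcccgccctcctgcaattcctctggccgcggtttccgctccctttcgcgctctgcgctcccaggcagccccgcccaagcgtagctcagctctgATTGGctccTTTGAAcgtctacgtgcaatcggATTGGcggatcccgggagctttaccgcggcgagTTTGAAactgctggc
Ube2c promoter, chr2:164769729-164769928, plus strand: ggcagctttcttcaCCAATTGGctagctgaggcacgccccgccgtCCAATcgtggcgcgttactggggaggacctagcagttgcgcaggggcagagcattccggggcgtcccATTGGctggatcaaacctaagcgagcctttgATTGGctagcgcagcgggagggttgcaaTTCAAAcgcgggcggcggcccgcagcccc
Fam83d promoter, chr2:158767899-158768098, plus strand: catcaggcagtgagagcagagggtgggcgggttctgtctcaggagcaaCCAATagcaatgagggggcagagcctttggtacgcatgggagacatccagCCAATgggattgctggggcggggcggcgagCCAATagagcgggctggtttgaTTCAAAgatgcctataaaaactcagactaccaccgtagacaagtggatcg
Kpna2 promoter, chr11:106999526-106999725, minus strand: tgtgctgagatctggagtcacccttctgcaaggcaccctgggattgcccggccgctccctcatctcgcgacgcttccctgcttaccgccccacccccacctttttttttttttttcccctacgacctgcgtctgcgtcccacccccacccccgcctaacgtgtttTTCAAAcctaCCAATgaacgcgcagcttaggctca

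In Top2a the element nearest the start was a reverse homology region that began 23 bases before it, preceded by a reverse box at 58 bases. In Cdk1 a forward homology region began 15 bases before the start and a reverse box 48 bases before it, and in Ube2c the nearest of each began at 29 bases and 57 bases. Mki67 carried its elements further upstream, with homology regions at 116 and 98 bases and the nearest box at 141 bases. A match of letters is a description and does not show a factor at the site.

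Beyond the rule, genes of mitosis were high and genes of replication were moderately high in cycling cells. These genes vary with those that chose the cells and were kept out of the tests. The 167 genes of the mitosis list summed to 31991 and 34559 CPM in cycling cells and to 11003 and 10552 CPM in non-cycling cells, and 148 of them were higher in cycling cells of both libraries, with a median log2 ratio of 1.55 in library 1 and 2.09 in library 2. Tubb5 (beta-tubulin) had 2392 and 2645 CPM in cycling cells, against 731 and 652 CPM in non-cycling cells. Hmgb2, a chromatin protein of dividing cells, had 1845 and 2019 CPM in cycling cells, against 288 and 337 CPM in non-cycling cells. Wide ratios were seen in genes of the spindle and its checkpoint. Plk1, a kinase of mitotic entry, stood at 256 and 290 CPM in cycling cells and at 3.79 and 16.5 CPM in non-cycling cells. Kif23, a motor of cytokinesis, stood at 353 and 248 CPM in cycling cells and at 15.1 and 21.2 CPM in non-cycling cells. Cdca8, a partner of Birc5 at the centromere, stood at 591 and 404 CPM in cycling cells and at 22.7 and 21.2 CPM in non-cycling cells. Cyclin B1 (Ccnb1) was at 282 and 285 CPM in cycling cells, against 34.1 and 35.3 CPM in non-cycling cells.

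The 93 replication genes summed to 9454 and 10245 CPM in cycling cells and to 6215 and 5927 CPM in non-cycling cells, with 54 higher and 10 lower in both libraries and median log2 ratios of 0.46 and 0.83. Pcna, the sliding clamp of DNA polymerase, had 380 and 476 CPM in cycling cells, against 163 and 214 CPM in non-cycling cells. Rrm2, which makes deoxyribonucleotides, had 124 and 155 CPM in cycling cells, against 26.5 and 51.8 CPM in non-cycling cells. Subunits of the replicative helicase did not share a direction. Mcm2 had 230 and 243 CPM in cycling cells and 197 and 195 CPM in non-cycling cells. Mcm4 ran the other way, with 97.1 and 119 CPM in cycling cells and 140 and 146 CPM in non-cycling cells. Chek1, a checkpoint kinase, was nearly level at 450 and 487 CPM in cycling cells and 492 and 468 CPM in non-cycling cells. Ccne2, a cyclin of S phase entry, stood at 70.6 and 104 CPM in cycling cells and at 11.4 and 37.7 CPM in non-cycling cells, while Ccne1 stood at 0 and 10.4 CPM in cycling cells and 15.1 and 16.5 CPM in non-cycling cells. Of 54 replication-dependent histone genes 18 were at 0 in cycling cells of both libraries, and Hist1h2ap, which has near-identical copies among which counting may split reads, gave most of the list's 1651 and 1574 CPM, with 1077 and 1061 CPM in cycling cells against 136 and 61.2 CPM in non-cycling cells.

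**Figure D2:**
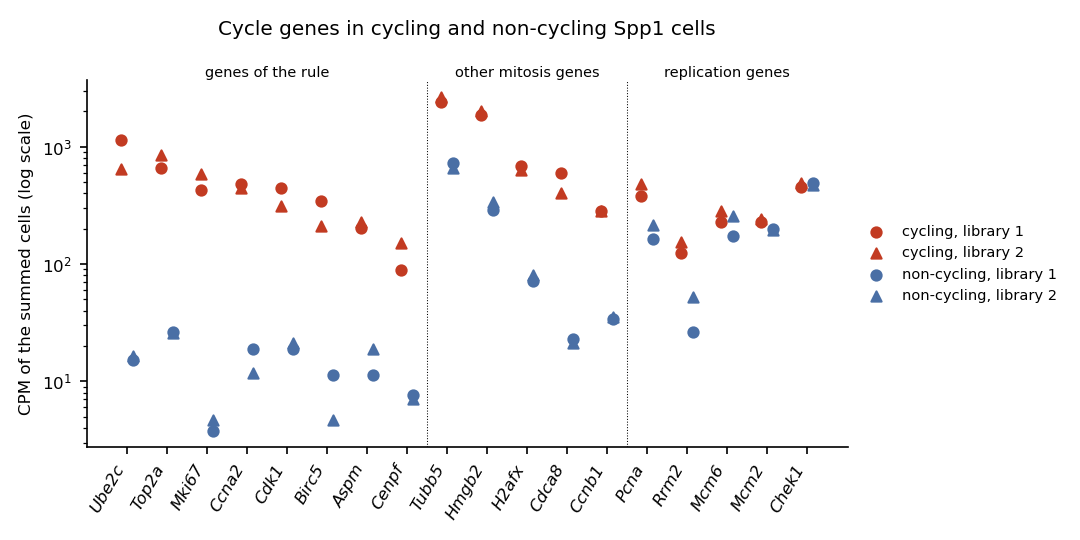
CPM of summed cells on a logarithmic axis for the genes of the rule (left), other mitosis genes (middle) and replication genes (right); red is cycling and blue non-cycling Spp1 cells, circles are library 1 and triangles library 2. Mitosis genes separate the classes, from Tubb5 (2392 and 2645 against 731 and 652 CPM) to Ccnb1 (282 and 285 against 34.1 and 35.3 CPM), whereas Mcm2 and Chek1 lie close together.

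The cycling cells differed among themselves in where this balance lay. Replication genes gave a median of 18.75% and 17.9% of a cycling cell's UMIs over both lists (range 8.57 to 46.8% in library 1 and 8.43 to 61.7% in library 2), against 36.2% and 35.2% in non-cycling cells. Mitosis genes took a median of 3.24% and 3.51% of all UMIs of cycling cells and 1.03% and 0.980% of those of non-cycling cells, and replication genes 0.773% and 0.818% in cycling cells and 0.520% and 0.472% in non-cycling cells. As few as 0 of 23 and 2 of 59 cycling cells had more replication than mitosis UMIs, against 8 of 83 and 17 of 162 non-cycling cells. The mitosis list holds more genes (167 against 93), and the rule chose cells by mitosis genes, so this balance is no independent result. A narrower pair of gene sets split the cycling cells more evenly. UMIs of Mcm2 to Mcm7 were set against those of Ccnb1, Cdc20, Plk1 and Cenpa, which peak in G2 and mitosis. The Mcm UMIs outnumbered the late ones in 10 and 31 cycling cells and were outnumbered in 11 and 26. Among non-cycling cells they outnumbered them in 54 of 83 and 112 of 162 and were outnumbered in 3 and 11. The 4 late genes together had no UMI in 5 of 23 and 17 of 59 cycling cells and in 68 of 83 and 125 of 162 non-cycling cells. At these depths a count of 0 does not place a cell in a phase.

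**Figure D3:**
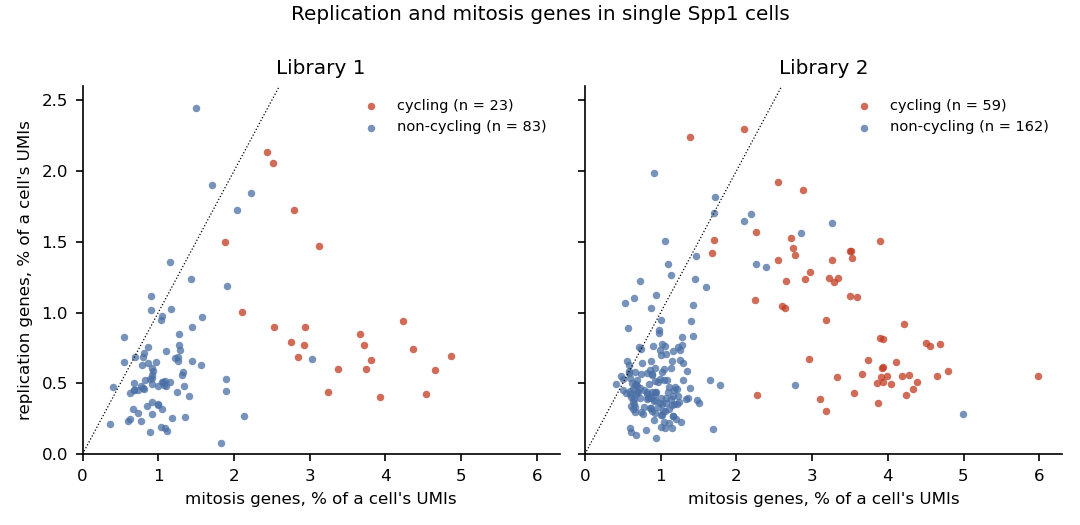
Share of each cell's UMIs from replication genes (y axis, %) against the share from mitosis genes (x axis, %) in library 1 (left) and library 2 (right); red points are cycling and blue points non-cycling cells, and the dotted line marks equal shares. Most cycling cells lie right of the non-cycling ones, and 0 and 2 of them lie above the line.

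Outside the cycle, trunk markers in the cycling cells lay near the levels of the non-cycling cells. Without Spp1, which the rule used, 11 trunk and duct markers summed to 4255 and 5327 CPM in cycling cells and to 3844 and 5211 CPM in non-cycling cells, against 2348 and 2522 CPM in Neurog3-high cells. Sox9, the transcription factor that maintains pancreatic progenitors, had 662 and 937 CPM in cycling cells and 689 and 1033 CPM in non-cycling cells. Bicc1, an RNA-binding protein of duct epithelium, had 962 and 1227 CPM in cycling cells and 720 and 1092 CPM in non-cycling cells. Markers outside the rule were thus at levels of the same epithelium as in the non-cycling cells, and the data did not go against the word trunk in the cells' name, although the labels call the sorted cells islet. Spp1 itself was at 2445 and 4178 CPM in cycling cells and 2405 and 4305 CPM in non-cycling cells, so its level went with the library more than with the class.

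Markers of acinar, blood, mesenchymal, endothelial, mesothelial and neural cells were low in both classes. Those of the endocrine lineage were higher. The 8 Neurog3 progenitor markers, of which the rule limits Neurog3, summed to 627 and 978 CPM in cycling cells and 973 and 1499 CPM in non-cycling cells. In Neurog3-high cells they summed to 7092 and 8526 CPM. Hormone and endocrine markers are given at the end. The rule itself limits 4 of the 14 acinar markers, and the 10 others summed to 88.3 and 51.8 CPM in cycling cells and 75.7 and 61.2 CPM in non-cycling cells, with Ptf1a, Prss1, Try4, Try5 and Bhlha15 at 0 in cycling cells. The 17 macrophage and blood markers summed to 185 and 186 CPM in cycling cells and 189 and 198 CPM in non-cycling cells, with Tyrobp and 4 globin genes at 0 in cycling cells. Mesenchymal markers (14 genes) summed to 212 and 197 CPM in cycling cells and 235 and 640 CPM in non-cycling cells. In non-cycling cells of library 2, 1 cell held 163 of the 272 mesenchymal UMIs. Without the highest cell of each class, the sums were 185 and 176 CPM in cycling cells and 220 and 257 CPM in non-cycling cells. Endothelial markers summed to 230 and 150 CPM in cycling cells and 178 and 148 CPM in non-cycling cells, with Plvap at 0 in cycling cells, and mesothelial ones to 53.0 and 41.4 CPM in cycling cells and 53.0 and 23.5 CPM in non-cycling cells. Neural and glial markers summed to 194 and 197 CPM in cycling cells and 246 and 299 CPM in non-cycling cells. The part of such transcripts in the results below was not tested beyond an alternative that leaves out cells with 3 or more UMIs of the macrophage, blood, mesenchyme, endothelial and mesothelial lists.

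Cycling and non-cycling cells were then compared gene by gene with edgeR's quasi-likelihood test on UMIs summed per library and class. Genes of the rule, of the cycle lists and of the mitochondrial genome were not tested. Of 9331 genes tested, 16 rose (0.171%) and 11 fell (0.118%) in cycling cells at a Benjamini-Hochberg adjusted p under 0.05, 27 in all (0.289%), each with the same sign in both libraries. At an unadjusted p under 0.05 there were 310 higher and 444 lower genes, and the median log2 fold change of all genes tested was -0.07. The contrast is the one that chose the cells, so genes that vary with the cell cycle, such as Kpna2, Fam83d, Dbf4, Trim59 and C330027C09Rik below, describe that choice and are no independent result. The same limit applies to lower genes that brake division or mark arrest, such as Cdkn1a and Gas5, and to Mxd4, which opposes Myc. DESeq2 called 8 of the same higher genes and 0 lower, and edgeR without the library term 11 of the same higher genes and 0 lower. Against non-cycling cells matched on UMIs per cell, edgeR called 7 higher and 5 lower, of which 7 and 4 were among the 27 genes. DESeq2 had 140 higher and 161 lower at an unadjusted p under 0.05, and edgeR without the library term 258 and 367.

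Among the higher genes, 5 are given first that vary with the cell cycle. Kpna2, an importin that carries proteins into the nucleus, had 14 and 27 UMIs (124 and 140 CPM) in cycling cells and 1 and 3 UMIs (3.79 and 7.06 CPM) in non-cycling cells. Per library this is a ratio of 32.6 (95% counting interval 4.96 to 1380) and of 19.8 (6.09 to 102), and the fitted log2 fold change was 4.42 ± 0.63 (SE, edgeR adjusted p = 9.58e-05). Kpna2 lies on chr11:106988629-106999541, and its promoter, printed above, holds a homology region 35 bases and a CCAAT box 25 bases before the start. Fam83d, whose product binds the spindle in human cells, had 150 and 150 CPM in cycling cells and 7.57 and 18.8 CPM in non-cycling cells (log2 fold change 3.41 ± 0.57, edgeR adjusted p = 0.000827), and its promoter holds the CCAAT box in 3 places and the homology region at 50 bases. C330027C09Rik, which RefSeq lists as Cip2a, an inhibitor of protein phosphatase 2A in human cells, had 88.3 and 171 CPM in cycling cells and 22.7 and 11.8 CPM in non-cycling cells (edgeR adjusted p = 0.00219). Trim59, a ubiquitin ligase, had 79.4 and 145 CPM in cycling cells and 22.7 and 11.8 CPM in non-cycling cells (edgeR adjusted p = 0.0144). Dbf4, which activates the replication kinase Cdc7, was at 203 and 202 CPM in cycling cells against 68.2 and 61.2 CPM in non-cycling cells (log2 fold change 1.65 ± 0.37, edgeR adjusted p = 0.0257).

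Of the other higher genes, 4 encode proteins that bind chromatin or RNA. The linker histone gene H1f0, known for its level in cells that stop dividing, rose to 406 and 611 CPM in cycling cells, against 205 and 98.9 CPM in non-cycling cells (log2 fold change 1.83 ± 0.29, edgeR adjusted p = 0.000389). H1fx, another linker histone gene, rose to 212 and 295 CPM in cycling cells, against 94.7 and 63.6 CPM in non-cycling cells (edgeR adjusted p = 0.00455). Exons of each overlap a gene on the other strand, and the labels do not tell whether counting kept to 1 strand. Sfpq, a splicing factor, stood at 547 and 569 CPM in cycling cells and at 231 and 311 CPM in non-cycling cells (log2 fold change 1.03 ± 0.23, edgeR adjusted p = 0.0252). Ptma (prothymosin alpha), a linker histone chaperone, was the most abundant gene that rose, at 4149 and 4980 CPM in cycling cells and 3265 and 3557 CPM in non-cycling cells (log2 fold change 0.42 ± 0.09, edgeR adjusted p = 0.0252).

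The remaining higher genes have no textbook place in the cell cycle, apart from the tubulin gene. Sec16b, a protein of the exit sites where COPII vesicles leave the endoplasmic reticulum (chr1:157506728-157568425), had 14 and 30 UMIs (124 and 155 CPM) in cycling cells and 2 and 0 UMIs (7.57 and 0 CPM) in non-cycling cells. The ratio was 16.3 in library 1 (95% counting interval 3.75 to 148) and at least 21.99-fold higher in library 2, where non-cycling cells are set to a floor of 3 UMIs, with an edgeR adjusted p of 9.58e-05. No cycling cell held more than 2 Sec16b UMIs. Klhl12, an adaptor of the Cul3 ubiquitin ligase that acts on COPII coats in human cells, rose to 247 and 145 CPM in cycling cells, against 68.2 and 47.1 CPM in non-cycling cells (log2 fold change 1.73 ± 0.38, edgeR adjusted p = 0.0252). Tnfsf4, which encodes OX40 ligand, a costimulatory protein of immune cells, rose to 185 and 176 CPM in cycling cells, against 22.7 and 14.1 CPM in non-cycling cells (log2 fold change 3.32 ± 0.50, edgeR adjusted p = 0.000136). Macrophage and blood markers summed to 185 and 186 CPM in cycling cells and 189 and 198 CPM in non-cycling cells, and their part in the Tnfsf4 result was not tested. Ndst4, a sulfotransferase that modifies heparan sulfate, had 159 and 228 CPM in cycling cells and 41.7 and 30.6 CPM in non-cycling cells (log2 fold change 2.47 ± 0.43, edgeR adjusted p = 0.00118). Zdhhc21, a palmitoyltransferase, had 282 and 311 CPM in cycling cells and 75.7 and 89.4 CPM in non-cycling cells (log2 fold change 1.83 ± 0.32, edgeR adjusted p = 0.0011). C10orf53, to which no role is given here, had 106 and 114 CPM in cycling cells and 3.79 and 21.2 CPM in non-cycling cells (edgeR adjusted p = 0.00942), and Tubb2a, a beta-tubulin with near-identical copies, had 265 and 207 CPM in cycling cells and 98.5 and 68.3 CPM in non-cycling cells (edgeR adjusted p = 0.0292).

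Intermediate cells lay between the classes for many of these genes, though not in every library. Tnfsf4 stood at 40.6 and 95.2 CPM in intermediate cells. C330027C09Rik stood at 91.4 and 83.3 CPM in them, in library 1 just above the 88.3 CPM of cycling cells. Tubb2a stood at 40.6 and 59.5 CPM in them, below the non-cycling values of 98.5 and 68.3 CPM. Sec16b stood at 10.2 and 71.4 CPM in intermediate cells. That was near the non-cycling value in library 1 and between the classes in library 2 (0 CPM in non-cycling and 155 CPM in cycling cells). Of the genes called higher with a promoter entry, 5 of 14 promoters from 13 genes held both elements (35.7%), against 6.95% of all promoters. They were those of Kpna2, Fam83d, Trim59, Sfpq and 1 of the promoters of Sec16b, which lies inside the gene. Kpna2, Fam83d and Trim59 vary with the cell cycle, so this share describes the choice of cells and is no independent result. Of the 13 promoters from 10 genes called lower, 0 held both, and so few promoters cannot set that count apart from the share of all promoters. Among these genes Dbf4, H1fx, Klhl12 and C330027C09Rik fall outside the rule for naming genes and were chosen after their values were seen.

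**Figure D4:**
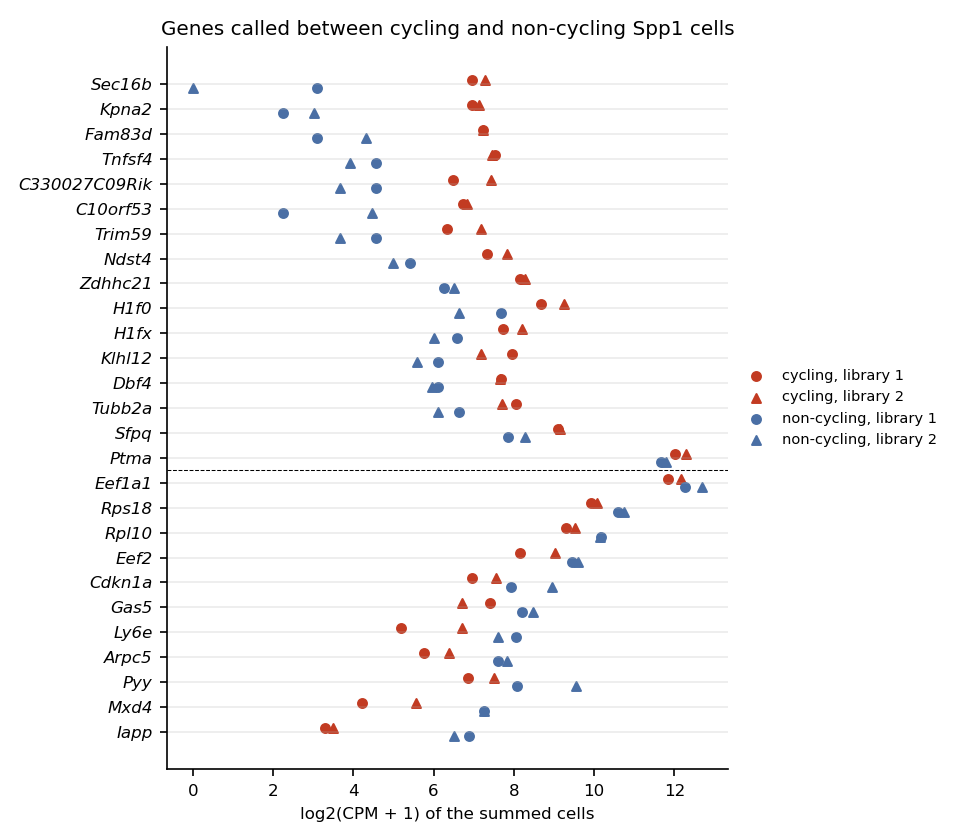
Level of the 27 genes called, as log2 of CPM plus 1, in cycling (red) and non-cycling (blue) Spp1 cells of library 1 (circles) and library 2 (triangles); genes above the dashed line rose and those below it fell. Gaps are wide for Sec16b and Kpna2 and narrow for the abundant Ptma and Eef1a1.

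Of the 11 genes that fell, 4 encode elongation factors or ribosomal proteins (Eef1a1, Eef2, Rps18 and Rpl10). Eef1a1, the factor that brings aminoacyl-tRNA to the ribosome, had 3655 and 4618 CPM in cycling cells and 4886 and 6640 CPM in non-cycling cells (log2 fold change -0.47 ± 0.08, edgeR adjusted p = 0.000994). Rps18 had 962 and 1066 CPM in cycling cells, against 1549 and 1723 CPM in non-cycling cells (log2 fold change -0.69 ± 0.13, edgeR adjusted p = 0.00455). Rpl10 had 627 and 735 CPM in cycling cells, against 1144 and 1128 CPM in non-cycling cells (edgeR adjusted p = 0.0123). These transcripts share the terminal oligopyrimidine tract through which cells adjust translation of the protein-making machinery. Eef2, the translocation factor, had 282 and 518 CPM in cycling cells and 701 and 779 CPM in non-cycling cells (edgeR adjusted p = 0.0252). Gas5, a noncoding host gene of small nucleolar RNAs known to build up in arrested cells, had 168 and 104 CPM in cycling cells and 292 and 358 CPM in non-cycling cells (log2 fold change -1.34 ± 0.30, edgeR adjusted p = 0.0252). Eef1a1 levels of the classes came close across libraries, at 4618 CPM in library 2 cycling cells against 4886 CPM in library 1 non-cycling cells, and within each library the cycling value was lower.

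The other genes that fell were Cdkn1a, Mxd4, Arpc5, Ly6e and the hormone genes Iapp and Pyy. For Cdkn1a and Mxd4, as for Gas5 above, the contrast is the one that chose the cells, so their falls are no independent result. Cdkn1a (p21, chr17:29090976-29100727), an inhibitor of cyclin-dependent kinases and a target of Neurog3 in endocrine progenitors, fell to 124 and 186 CPM in cycling cells, against 242 and 490 CPM in non-cycling cells (log2 fold change -1.22 ± 0.29, edgeR adjusted p = 0.0472). It was highest in Neurog3-high cells, at 638 and 1026 CPM, and 39 of its 208 UMIs in non-cycling cells of library 2 came from 1 cell. Mxd4, which opposes Myc, fell to 17.7 and 46.6 CPM in cycling cells, against 151 and 153 CPM in non-cycling cells (log2 fold change -2.10 ± 0.47, edgeR adjusted p = 0.0259). Arpc5, a subunit of the Arp2/3 complex that branches actin, fell to 53.0 and 82.8 CPM in cycling cells, against 193 and 226 CPM in non-cycling cells (edgeR adjusted p = 0.0252). Ly6e, a surface protein held by a lipid anchor, fell to 35.3 and 104 CPM in cycling cells, against 265 and 193 CPM in non-cycling cells (edgeR adjusted p = 0.0345).

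The hormone genes rested on few cells. Iapp (islet amyloid polypeptide) had 1 and 2 UMIs in cycling cells and 31 and 38 UMIs in non-cycling cells (log2 fold change -3.43 ± 0.69, edgeR adjusted p = 0.00907), but 25 and 23 of the non-cycling UMIs came from 1 cell in each library. Without the highest cell of each class, an alternative added after the values were seen, Iapp stood at 0 and 5.18 CPM in cycling cells and 22.7 and 35.3 CPM in non-cycling cells. The Iapp call was lost in 6 of 14 alternatives, and its log2 fold change was -0.83 among cells with at least 5 Spp1 UMIs (edgeR adjusted p = 0.903), with -4.31 as the other end of the range. Pyy (peptide YY) had 115 and 181 CPM in cycling cells and 269 and 749 CPM in non-cycling cells (log2 fold change -1.76 ± 0.34, edgeR adjusted p = 0.00455), with 33 of 71 and 112 of 318 non-cycling UMIs in 1 cell. Its direction turned round to a log2 fold change of 0.56 when both classes were limited to cells with at least 5 Spp1 UMIs (edgeR adjusted p = 0.807) and to 0.29 when cells with other cell types' markers were left out (edgeR adjusted p = 0.936).

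Among 17 gene lists, endocrine entry genes had the lowest median. Of 47 tested, 0 rose and 1 fell (Cdkn1a), and at an unadjusted p under 0.05 there were 0 higher and 17 lower. For this list and those below, the background at that level is 310 higher and 444 lower of all 9331 genes tested. The list's median log2 fold change was -0.82, against -0.07 for all genes tested, and 43 of its genes were fitted below 0, 31 of them lower in both libraries. Neurod1, a transcription factor directly under Neurog3, had 17.7 and 15.5 CPM in cycling cells and 53.0 and 61.2 CPM in non-cycling cells (edgeR adjusted p = 0.314). Insm1, a zinc finger factor of endocrine progenitors, had 35.3 and 140 CPM in cycling cells and 136 and 238 CPM in non-cycling cells (edgeR adjusted p = 0.231). Isl1, a later endocrine factor, had 0 and 25.9 CPM in cycling cells and 64.4 and 80.0 CPM in non-cycling cells (edgeR adjusted p = 0.137). Sox4, which is broader and helps to switch Neurog3 on, had 662 and 694 CPM in cycling cells and 973 and 993 CPM in non-cycling cells (edgeR adjusted p = 0.173). The ceilings on Neurog3, Chgb and hormones in the rule are raw UMIs, and cycling cells are deeper. With non-cycling cells matched on UMIs the list's median was -0.90, and with Neurog3 at 0 in both classes it was -0.997. Under at least 5 Spp1 UMIs it was -0.43, and Neurog3 itself, which the rule limits, stood at 79.4 and 150 CPM in cycling cells and 144 and 224 CPM in non-cycling cells.

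Of 79 ribosomal protein genes tested, 0 rose and 2 fell (Rps18 and Rpl10), 41 were lower and 0 higher at an unadjusted p under 0.05, and 72 were lower in both libraries with a median log2 fold change of -0.31. Rps25 is an example of those that missed the threshold, with 477 and 621 CPM in cycling cells and 735 and 934 CPM in non-cycling cells (edgeR adjusted p = 0.138). The list's median lay between -0.45 and -0.27 under all 14 alternatives. Genes for assembling ribosomes had a median near that of all genes: of 53 nucleolar genes 0 were called, 2 were higher and 1 lower at an unadjusted p under 0.05, and the median was -0.01. Several ribosomal protein genes have near-identical copies elsewhere in the genome, among which the authors' counting may split reads.

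Nuclear gene lists lay on the other side of the median of all genes. Of 83 splicing and RNA-binding genes 1 rose (Sfpq) and 0 fell, 11 were higher and 0 lower at an unadjusted p under 0.05, and the median was 0.25. Srsf2, a splicing factor rich in serine and arginine, had 450 and 595 CPM in cycling cells and 295 and 344 CPM in non-cycling cells (edgeR adjusted p = 0.234). Of 60 genes of chromatin remodelling and nuclear transport 2 rose (Kpna2 and Ptma) and 0 fell, 14 were higher and 0 lower at an unadjusted p under 0.05, and the median was 0.25 (0.0039 and 0.41 within the libraries). Cse1l, the exportin that returns importin alpha to the cytoplasm, had 159 and 223 CPM in cycling cells and 49.2 and 87.1 CPM in non-cycling cells (edgeR adjusted p = 0.0558). Set, a histone chaperone, had 1236 and 1330 CPM in cycling cells and 905 and 833 CPM in non-cycling cells (edgeR adjusted p = 0.0756). Of the 16 nuclear pore genes tested (symbols in Nup), a family picked after the values were seen, 0 were called, and 5 were higher and 0 lower at an unadjusted p under 0.05.

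**Figure D5:**
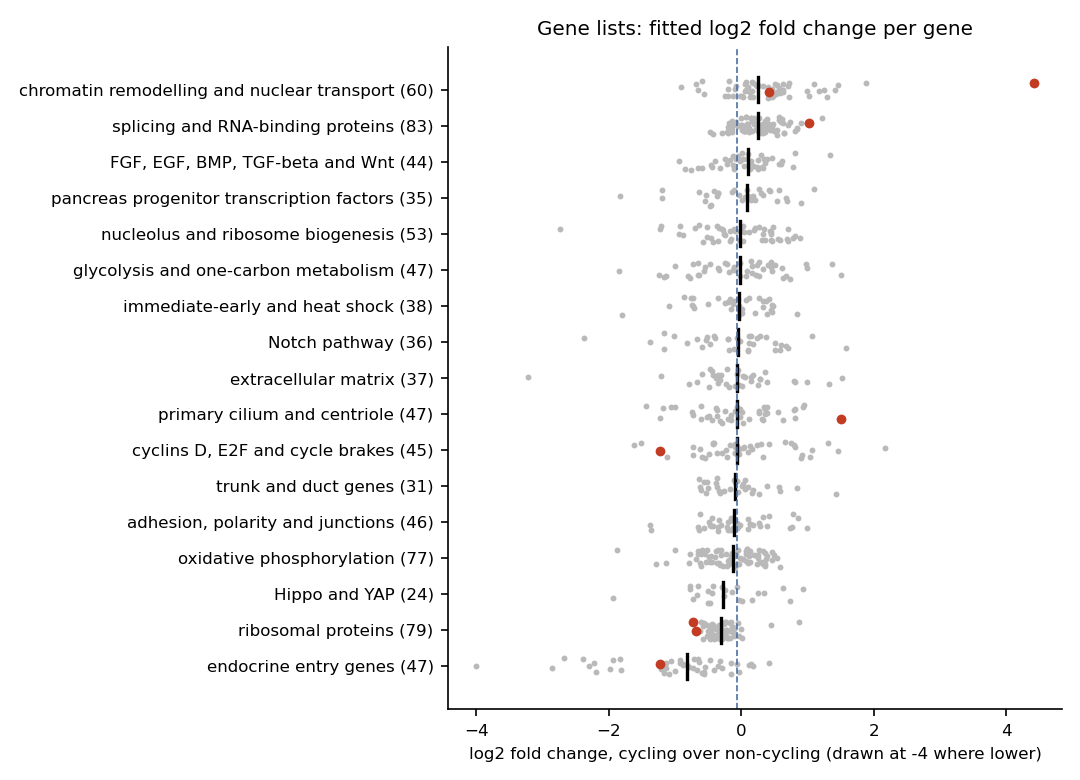
Fitted log2 fold change of each tested gene, cycling over non-cycling, in 17 gene lists ordered by median (black bars), with the number tested in brackets; red points are the genes called, 1 value under -4 is drawn at -4, and the dashed line is the median of all genes tested, -0.07. Medians of the endocrine entry, ribosomal protein and Hippo lists lie furthest left of that line, and those of the chromatin and splicing lists furthest right.

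In lists of trunk identity and of the signals that shape it, edgeR called 0 genes in either direction, and DESeq2 also called 0. Among 31 trunk and duct genes, 4 were higher and 2 lower at an unadjusted p under 0.05, with a median of -0.09. Of all 9331 genes tested, 310 were higher and 444 lower at that level. Hes1, the Notch target that holds back Neurog3, had 344 and 554 CPM in cycling cells and 205 and 395 CPM in non-cycling cells (log2 fold change 0.59 ± 0.29, edgeR adjusted p = 0.618). Nkx6-1, a factor of trunk and later beta cells, had 238 and 430 CPM in cycling cells and 205 and 252 CPM in non-cycling cells (edgeR adjusted p = 0.520). Among 36 Notch genes 2 were higher and 1 lower at that level (median -0.04), the lower one being Aph1a, a subunit of the gamma-secretase that cuts Notch, at 70.6 and 72.5 CPM in cycling cells and 186 and 186 CPM in non-cycling cells (edgeR adjusted p = 0.112). Progenitor transcription factors (35 tested, 1 higher and 4 lower, fitted median 0.09 but -0.0016 and -0.11 within the libraries) included Id2, an inhibitor of bHLH factors, at 335 and 326 CPM in cycling cells and 174 and 226 CPM in non-cycling cells (edgeR adjusted p = 0.465). Hippo genes (24 tested, median -0.27), FGF, EGF, BMP, TGF-beta and Wnt genes (44 tested, fitted median 0.10, with -0.14 and 0.02 within the libraries), adhesion genes (46 tested, median -0.11) and extracellular matrix genes (37 tested, median -0.06) had 1 to 2 members on each side at an unadjusted p under 0.05.

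Regulators of the decision to divide did not share a direction. Of 45 cyclins D, E2F factors and brakes, 0 rose and 1 fell (Cdkn1a), with 5 higher and 5 lower at an unadjusted p under 0.05 and a median of -0.07. Among all 9331 genes tested 310 were higher and 444 lower at that level, a smaller share on each side. Ccnd2, a D cyclin that opens the way to S phase, had 61.8 and 104 CPM in cycling cells and 303 and 221 CPM in non-cycling cells, and just missed the threshold (edgeR adjusted p = 0.0502). Ccnd1 had 291 and 212 CPM in cycling cells and 379 and 290 CPM in non-cycling cells, and its partner Cdk4 450 and 512 CPM in cycling cells and 481 and 501 CPM in non-cycling cells. Skp2, which marks cycle inhibitors for destruction, had 185 and 88.0 CPM in cycling cells and 53.0 and 49.4 CPM in non-cycling cells (edgeR adjusted p = 0.336). Btg2, an antiproliferative gene, had 150 and 357 CPM in cycling cells and 398 and 480 CPM in non-cycling cells (edgeR adjusted p = 0.221). Gene lists of energy supply were close to the median of all genes: 77 oxidative phosphorylation genes had a median of -0.13 with 0 called (0 higher and 3 lower at an unadjusted p under 0.05), and 47 genes of glycolysis and one-carbon metabolism a median of -0.01 with 0 called (2 higher and 2 lower). Cilium genes (47 tested) had 1 that rose, Tubb2a, and a median of -0.06, and immediate-early and heat shock genes (38 tested) had 0 called, 2 higher and 4 lower at an unadjusted p under 0.05 and a median of -0.03.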

How the data were processed

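The wild-type libraries of inDrop single-cell RNA-seq were analysed, made with 1CellBio droplets and CEL-Seq chemistry and read on a NextSeq500, per the labels' protocols. The deposited tables hold raw UMI counts per gene and barcode (25507 genes, 1635 barcodes, 0 columns unused), made on GRCm38 per the submitters' processing notes, with the aligner, counting tool, annotation and strand setting not given in the sources used here.

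The members and gene lists were chosen with earlier results of these data known. Cells with at least 1000 UMIs and at most 20% mitochondrial UMIs were kept. Doublets were scored with Scrublet (scanpy 1.11.5) and left in, with their removal as an alternative. UMI counts were summed for 5 classes (cycling, intermediate, non-cycling, Neurog3-high and Chgb-high) in each library, giving 10 sums. They were fitted with edgeR 4.0.16 (R 4.3.3, TMM scaling, filterByExpr, quasi-likelihood test) with terms for library and class and 4 residual degrees of freedom. Every class comes from the same 2 libraries, so library is the block in that fit. Genes past the filter numbered 9599, of which 268 (rule, cycle-list and mitochondrial genes) were left out of the tests. P-values were adjusted over the 9331 others by Benjamini-Hochberg, with 0.05 as threshold. Levels are CPM on TMM-scaled sizes, and single-library log2 ratios use a pseudocount of 1 CPM. The ratios given with counting intervals use no pseudocount, with a floor of 3 UMIs where non-cycling cells held no UMI. The libraries differed beyond counting noise (chi-square per degree of freedom 1.81 in cycling and 1.83 in non-cycling cells), and were counted as 2 samples. Sums of 109631 and 197904 UMIs in cycling cells limit low genes.

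Genes named by rule were called with the same sign in both libraries. In each list they are the 2 with the lowest adjusted p. Outside the lists they are the 8 largest rises and falls at 50 CPM or more. Members of the tested lists that are given though not called are examples picked outside this rule, and they do not stand for their lists. DESeq2 1.42.0 and 13 other alternatives were run. Positions are from GENCODE M21 (34 of 36 genes found), promoters from RefSeq (GRCm38.p6).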

Additional observations from a re-analysis of the deposited data

How the results depend on the processing

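Against 16 genes called higher and 11 called lower in cycling cells, DESeq2 called 8 and 0, non-cycling cells matched on UMIs 7 and 5, and cells with Neurog3 at 0 called 8 and 4. Without a filter on low counts the lower genes numbered 41, with an 8-gene sum of at least 10 UMIs 21, and with no replicate block 0 (11 higher). The other alternatives gave 14 to 22 higher and 8 to 15 lower genes. Leaving out cells with other cell types' markers left 12 cycling cells in library 1 and 44 in library 2. Pyy reversed to a log2 fold change of 0.56 at 5 or more Spp1 UMIs and to 0.29 without those other-marker cells. The cause of these changes was not tested.

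Kpna2, Sec16b, Tnfsf4, Ndst4 and H1f0 were called under all 14 alternatives, Fam83d and Zdhhc21 under 13, Rps18 and Eef1a1 under 12. Trim59 was called under 11, C10orf53, Pyy and Rpl10 under 10, and Ptma, Gas5 and Eef2 under 9. Iapp, Mxd4, Arpc5 and Ly6e were called under 8, Tubb2a and Sfpq under 7, and Cdkn1a under 6. The naming rule required the same sign in each library, so leaving out a library could not turn a named gene round. The median of all genes lay between -0.11 and -0.04, and at -0.18 with no filter. With 2 libraries and few UMIs per cell, a gene that was not called cannot be taken as equal between classes.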

Other observations

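Somatostatin and pancreatic polypeptide transcripts, which belong to delta and PP cells, were unevenly spread among the Spp1 cells. Sst stood at 17.7 and 544 CPM in cycling cells, 11.4 and 221 CPM in non-cycling cells and 10.2 and 35.7 CPM in intermediate cells. Its level was thus higher in library 2 in each of these classes, but the classes of library 2 also differed. Whether single cells held most of its UMIs was not tested. Ppy stood at 0 and 31.1 CPM in cycling cells and at 3.79 and 80.0 CPM in non-cycling cells. The 12 hormone and endocrine markers together came to 591 and 1020 CPM in cycling cells, 845 and 1570 CPM in non-cycling cells and 10005 and 15880 CPM in Chgb-high cells, and whether free RNA gave the low values was not tested.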
